A study of Mus musculus with 2 samples.

Results

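The cyclin-dependent kinase (CDK) inhibitors are the 7 mouse genes *Cdkn1a*, *Cdkn1b*, *Cdkn1c*, *Cdkn2a*, *Cdkn2b*, *Cdkn2c* and *Cdkn2d*. They were taken by name from the 18193 genes that have at least 1 probe set of their own on the array, that is, a probe set whose annotation names only that gene. Together they had 9 such probe sets. Their expression was compared between BCL11B-/- and BCL11B+/+ mouse embryonic fibroblasts (MEFs), which are primary cells grown from embryos at embryonic day 12.5. Both cultures were of C57BL/6 mice, were used at passage 2, and had been kept for 12 h under adipogenic induction. The medium held pioglitazone at 10 μM, insulin at 10 μg/ml, dexamethasone at 1 μM, isobutylmethylxanthine at 0.5 mM, ascorbic acid and 10% serum. BCL11B-/- MEFs lack the zinc finger transcription factor BCL11B in every cell of the embryo, and the number of embryos behind each culture is not given in the sources used here. There was 1 array for each genotype, so no value has a replicate error and no p-value was computed.

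CDK inhibitors hold back the cell cycle. The CIP/KIP family (*Cdkn1a*, which encodes p21, *Cdkn1b*, which encodes p27, and *Cdkn1c*, which encodes p57) binds cyclin and kinase together and acts on several cyclin-CDK complexes. The INK4 family (*Cdkn2a*, *Cdkn2b*, *Cdkn2c* and *Cdkn2d*) binds CDK4 and CDK6 and keeps D-type cyclins from activating them, so that the retinoblastoma protein stays able to block E2F factors. In preadipocyte lines such as mouse 3T3-L1, cells divide again soon after hormonal induction and then leave the cycle as they mature, and levels of p27, p21 and p18 are known to shift during these steps.

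All values are log2 expression after robust multi-array average, and all differences are BCL11B-/- minus BCL11B+/+ on that scale. Where a gene had several probe sets, the one with the greater mean of both arrays was used. Genes with a mean under 5 were set aside, which left 12331 genes and all 7 inhibitors. Ranges over all probe sets of a gene, given below, include probe sets with a mean under 5. As the cells were measured in bulk, fewer cells of a type and less RNA per cell cannot be told apart. A difference was called at 1.5-fold, which is 0.58 log2 units. To judge the spread between probe sets, the differences of several probe sets for 1 gene were compared. Their SD, pooled over 5543 genes, was 0.15 log2 units. The 4 probe sets of *Bcl11b*, the deleted gene, read 5.32 to 7.40 in BCL11B-/- MEFs and 6.79 to 8.77 in BCL11B+/+ MEFs, and each was 2.26- to 2.97-fold lower in BCL11B-/- MEFs. The sources used here do not name the deleted exons. The cultures also differed in sex-linked RNA: *Xist*, the RNA of the inactive X chromosome, read 4.80 in BCL11B-/- and 10.80 in BCL11B+/+ MEFs. *Uty*, *Kdm5d* and *Eif2s3y*, which lie on the Y chromosome, had differences of 0.81, 0.97 and 1.08. They read 7.61, 7.81 and 8.97 in BCL11B-/- MEFs and 6.80, 6.84 and 7.89 in BCL11B+/+ MEFs. Y-linked RNA was thus read in both cultures. A difference in the sex of the embryos, or any other difference between these cultures, cannot be told apart from the genotype in this design.

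*Cdkn1c* was the inhibitor that stood apart. Its single probe set (1417649_at) read 11.96 in BCL11B-/- MEFs, against 12.67 in BCL11B+/+ MEFs. This is a log2 difference of −0.71, or 1.64-fold lower, and 4.91 times the SD between probe sets. That SD covers only the spread between probe sets of a gene within this pair of arrays. It leaves out error that the probe sets of a gene share, and variation between cultures. p57, its product, is a maternally expressed, imprinted inhibitor that is linked to cell cycle exit in many embryonic tissues. Of the 12331 genes, 142 had a lower difference. By the weighted average difference, which multiplies a difference by the relative expression level and was the ranking used in the study, *Cdkn1c* was the 36th lowest of 18193 genes. The study itself picked out *Cdkn1c* from these arrays, so its difference is not independent evidence of a direction. Having only 1 probe set, it could not be checked on a second one.

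**Figure D1:**
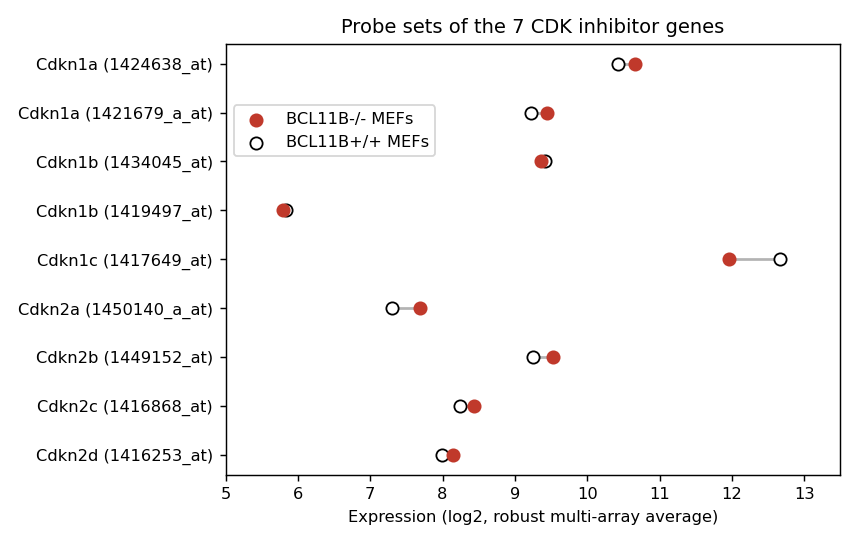
Each row is a probe set of a CDK inhibitor gene (vertical axis) and its log2 expression (horizontal axis) in BCL11B-/- MEFs (red) and BCL11B+/+ MEFs (white), each from a single array without error bars. Only for *Cdkn1c*, with 11.96 and 12.67, does the red circle lie clearly to the left.

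The other CIP/KIP genes did not show this difference. *Cdkn1a*, whose product p21 is the classical inhibitor induced by p53, read 10.67 in BCL11B-/- MEFs, against 10.42 in BCL11B+/+ MEFs. Its other probe set read 9.44 in BCL11B-/- and 9.22 in BCL11B+/+ MEFs. The differences of 0.25 and 0.22 lay close together, both upward and both short of 1.5-fold. *Cdkn1b*, whose product p27 restrains cyclin E- and cyclin A-bound CDK2, read 9.36 in BCL11B-/- and 9.41 in BCL11B+/+ MEFs. Its dimmer probe set read 5.79 in BCL11B-/- and 5.84 in BCL11B+/+ MEFs. Both probe sets of *Cdkn1b* differed by −0.05, which is within the SD between probe sets. Within this family the 3 genes thus differed by −0.71, −0.05 and 0.25.

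All 4 INK4 genes had slightly higher values in BCL11B-/- MEFs, and none reached 1.5-fold. *Cdkn2a* read 7.69 in BCL11B-/- and 7.30 in BCL11B+/+ MEFs, a difference of 0.39 or 1.31-fold, the highest among the 7 inhibitors. *Cdkn2b*, which encodes p15, an inhibitor known to be induced by TGF-β, read 9.52 in BCL11B-/- and 9.25 in BCL11B+/+ MEFs, a difference of 0.27 or 1.21-fold. *Cdkn2c*, which encodes p18, read 8.43 in BCL11B-/- and 8.24 in BCL11B+/+ MEFs. *Cdkn2d*, which encodes the INK4 protein p19, read 8.146 in BCL11B-/- and 7.996 in BCL11B+/+ MEFs. The differences of *Cdkn2c* and *Cdkn2d*, 0.19 and 0.15, were little more than 1 SD between probe sets. Over the family the differences ran from 0.15 to 0.39 with a median of 0.23. Each of the 4 genes has a single probe set, so none could be checked on a second one.

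*Cdkn2a* and *Cdkn2b* lie next to each other on the same strand, and *Cdkn2a* is read from a pair of start sites. The upstream start gives the transcript of ARF, which acts through MDM2 and p53, and the downstream start gives that of the CDK inhibitor p16, INK4a. Both transcripts share their later exons. The probe set of *Cdkn2a* (1450140_a_at) carries the suffix of probe sets that can match several transcripts of a gene, so its 0.39 cannot be assigned to either product here. RefSeq promoter windows of build GRCm38.p6, from 250 bases before to 50 bases after each start, are shown for these 3 starts, since both genes were higher in the same culture by less than 1.5-fold. All lie on the minus strand and are written 5′ to 3′ along the gene. Capitals mark the GC box GGGCGG, searched on both strands.
*Cdkn2a*, upstream start, chr4:89294570-89294869: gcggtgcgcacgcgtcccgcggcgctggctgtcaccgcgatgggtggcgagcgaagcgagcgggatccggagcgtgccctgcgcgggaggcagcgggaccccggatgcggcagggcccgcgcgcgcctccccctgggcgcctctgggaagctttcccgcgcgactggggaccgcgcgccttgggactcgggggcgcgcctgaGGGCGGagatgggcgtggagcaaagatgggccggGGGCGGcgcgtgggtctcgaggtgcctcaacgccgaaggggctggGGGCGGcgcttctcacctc
*Cdkn2a*, downstream start, chr4:89282143-89282442: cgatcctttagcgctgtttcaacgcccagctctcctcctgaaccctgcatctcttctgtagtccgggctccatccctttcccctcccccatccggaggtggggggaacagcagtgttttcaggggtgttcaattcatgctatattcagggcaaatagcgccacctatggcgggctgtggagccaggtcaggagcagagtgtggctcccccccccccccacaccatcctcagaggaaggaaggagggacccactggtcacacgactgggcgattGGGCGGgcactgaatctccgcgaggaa
*Cdkn2b*, chr4:89310983-89311282: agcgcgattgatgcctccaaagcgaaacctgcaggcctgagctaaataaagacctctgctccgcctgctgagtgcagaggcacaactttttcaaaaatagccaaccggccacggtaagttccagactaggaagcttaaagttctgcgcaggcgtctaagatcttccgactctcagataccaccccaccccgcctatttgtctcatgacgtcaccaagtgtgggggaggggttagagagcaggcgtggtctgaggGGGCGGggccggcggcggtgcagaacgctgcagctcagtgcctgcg
The upstream window of *Cdkn2a* held 77.0% G and C with 45 CpG and 3 GC boxes, the downstream window 60.3% with 12 CpG and 1 GC box, and the window of *Cdkn2b* 57.7% with 18 CpG and 1 GC box. Over all 32851 windows of the table the median was 52.7% G and C with 7 CpG, and 35.7% of windows held at least 1 GC box. The table held 9 windows for 6 of the 7 inhibitors, all but *Cdkn1c*, and 7 of the 9 held a GC box. The TATA box TATAAA was in none of the 9, and in 13.6% of all windows. A match is a description of letters and not of a bound site.

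Among all measured genes, 1.75% were at least 1.5-fold lower and 1.61% at least 1.5-fold higher in BCL11B-/- MEFs. Of the 7 inhibitors, *Cdkn1c* alone (1 of 7) was lower and none was higher. At 1.2-fold, where 7.80% of all genes were lower and 8.81% higher, *Cdkn1c* was still the only inhibitor that was lower, and *Cdkn2a* and *Cdkn2b* were higher. The median over the 7 genes was 0.19, and over all 12331 genes it was 0. Of the 7 inhibitors 5 were above 0, as were 48.8% of all genes. Differences of at least 0.15, the value of *Cdkn2d*, were found for 18.7% of all genes. The 7 differences spanned 1.10 log2 units. Without *Cdkn1c* the other 6 ran from −0.05 to 0.39, inside the range from −0.48 to 0.50 that held the central 95% of all genes.

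**Figure D2:**
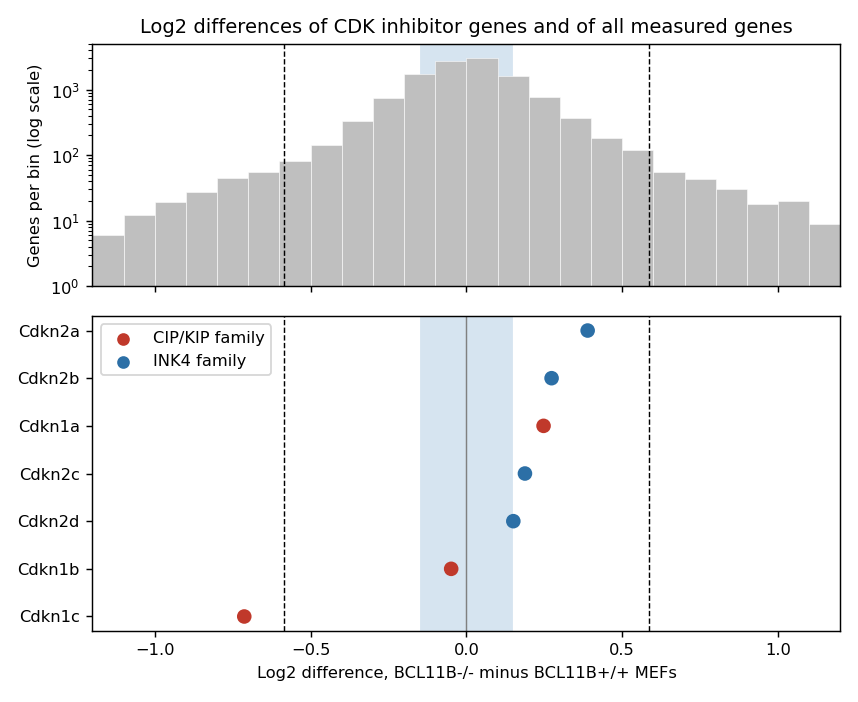
The horizontal axis is the log2 difference, BCL11B-/- minus BCL11B+/+ MEFs. The upper panel counts all measured genes per bin of 0.1 (vertical axis, log scale; 58 genes lie beyond the axis), and the lower panel shows the 7 inhibitors (vertical axis) of the CIP/KIP family in red and the INK4 family in blue, with dashed lines at 1.5-fold and a shaded band of 1 SD between probe sets to either side of 0. *Cdkn1c* at −0.71 lies outside the dashed lines, *Cdkn1b* at −0.05 lies in the band, and the other 5 lie from 0.15 to 0.39.

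Among the kinases of the cell cycle *Cdk1* differed most, and the others showed little difference. *Cdk4*, the main partner of D-type cyclins in fibroblasts and a target of the INK4 proteins, read 10.51 in BCL11B-/- and 10.58 in BCL11B+/+ MEFs. *Cdk6*, the other INK4 target, read 8.11 in BCL11B-/- and 8.15 in BCL11B+/+ MEFs, and *Cdk2*, a target of CIP/KIP proteins, read 7.73 in BCL11B-/- and 7.72 in BCL11B+/+ MEFs. *Cdk1*, the mitotic kinase, differed by 0.36, and *Cdk7*, a CDK-activating kinase, by 0.03, with 5 probe sets from −0.23 to 0.13. None of 5 kinase genes passed 1.5-fold, and their median was 0.0068.

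Cyclins and the retinoblastoma family also lay within 1.5-fold. *Ccnd1*, cyclin D1, read 9.80 in BCL11B-/- and 10.11 in BCL11B+/+ MEFs, a difference of −0.31, but its 3 probe sets ran from −0.31 to 0.0021. *Ccnd2* differed by 0.12, with 7 probe sets from 0.01 to 0.31, and *Ccnd3* by −0.14. The 3 probe sets of *Ccnd3* ran from −0.14 to 0.38, the latter at a mean of 4.31. Of the E-, A- and B-type cyclins 4 were measured. *Ccna2* and *Ccnb2*, which act in S phase and mitosis, each differed by 0.38, while *Ccne1* and *Ccne2*, which act at the entry into S phase, differed by −0.03 and −0.01. *Rb1*, *Rbl1* and *Rbl2*, the pocket proteins that CDKs inactivate, differed by 0.13, 0.15 and 0.13. Of 9 E2F and DP factors none passed 1.5-fold; the highest were *E2f6* and *E2f7*, both repressive E2Fs, with 0.45 and 0.14, and the lowest were *Tfdp1*, a dimer partner of E2Fs, with −0.18 and *E2f3*, an activating E2F, with −0.10. Of 12 other genes of CDK control none passed either, with *Cdc25c*, a phosphatase that activates CDK1, highest at 0.55, *Cdkn3*, a CDK-associated phosphatase, next at 0.41, *Cdc25b*, another CDK-activating phosphatase, lowest at −0.20, and *Wee1*, a kinase that inhibits CDK1, next at −0.13. The other probe set of *Wee1* differed by 0.13.

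Genes downstream of the restriction that CDK inhibitors impose went in different ways. Of 17 measured S phase genes, which E2F factors are known to drive, none passed 1.5-fold, 7 were above 0 and 9 below, and the median was −0.0070. *Rrm2*, a subunit of ribonucleotide reductase, and *Cdt1*, a replication licensing factor, were lowest at −0.30 and −0.19, and *Gins2* and *Cdc45*, both parts of the replicative helicase, were highest at 0.22 and 0.18. Of 20 mitosis genes all were above 0 on the brightest probe set, as were 48.8% of all genes. Their median was 0.42, with a range from 0.21 to 0.62, and as the mean over all probe sets the median was 0.31. Most of their other probe sets were also above 0, but some were not, such as *Tpx2* with −0.07 at a mean of 5.47 and *Nusap1* with −0.18 at a mean of 4.45. *Ttk*, a kinase of the spindle checkpoint, was the only mitosis gene past 1.5-fold with 0.62. Its other probe set differed by −0.20 at a mean of 4.84. *Mki67*, the proliferation marker, read 9.90 in BCL11B-/- and 9.50 in BCL11B+/+ MEFs. The other 19 mitosis genes were short of 1.5-fold. Whether the values of the mitosis genes and of the inhibitors bear on each other was not tested.

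**Figure D3:**
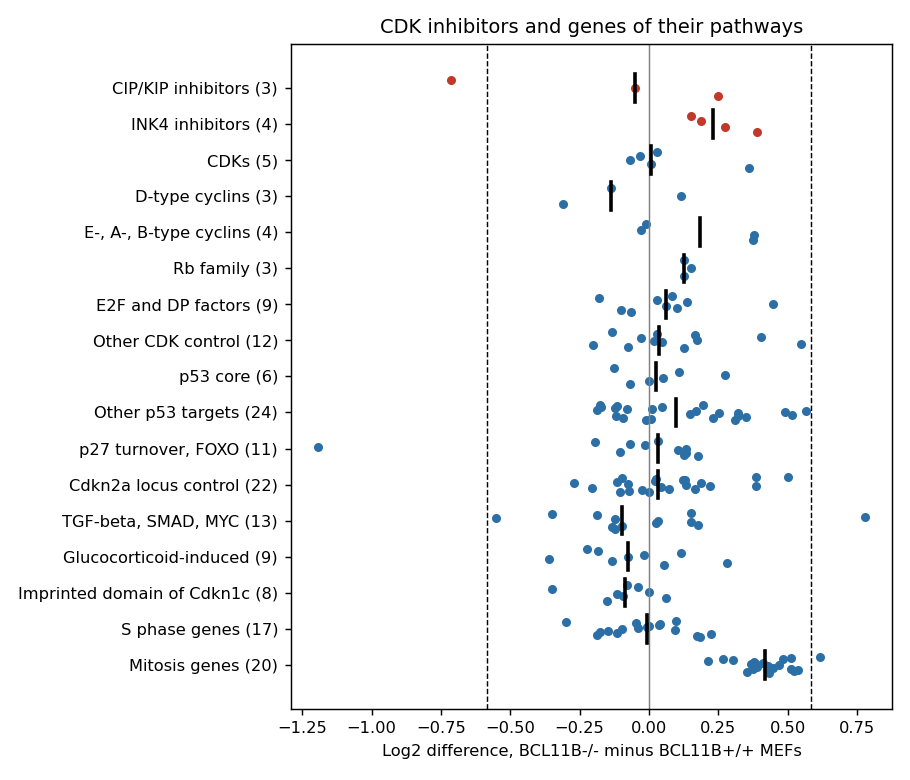
Inhibitors (red points) and genes of their pathways (blue points) are placed by their log2 difference, BCL11B-/- minus BCL11B+/+ MEFs (horizontal axis), in rows by list (vertical axis, with the count of measured genes), with black bars at list medians and dashed lines at 1.5-fold. The median of mitosis genes lies at 0.42 and that of the INK4 genes at 0.23, and the points past the dashed lines are *Cdkn1c*, *Foxo4*, *Tgfb3* and *Ttk*.

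Known regulators of the inhibitors were read next, from lists written for this purpose. For *Cdkn1a* these were genes of the p53 core and other p53 targets. *Trp53*, the gene of p53 itself, and the target *Bax* had no probe set of their own and were not read. Of 6 measured genes of the p53 core none passed 1.5-fold, with *Chek2*, a checkpoint kinase, highest at 0.27 and *Mdm2*, the ubiquitin ligase that p53 itself induces, next at 0.11. *Mdm4*, a relative of *Mdm2*, and *Atm*, a kinase of the DNA damage response, were lowest at −0.12 and −0.07. Of 24 other p53 targets none passed, 15 were above 0 and 9 below, and the median was 0.10. The highest were *Plk2*, a polo-like kinase gene, with 0.57, the death receptor gene *Fas* with 0.51 and *Phlda3*, an inhibitor of AKT, with 0.49. The other probe set of *Plk2* differed by −0.17 at a mean of 4.43. The lowest were *Pmaip1*, which encodes the BH3 protein NOXA, with −0.19 and *Trp53inp1* with −0.18. The difference of *Cdkn1a*, 0.25, lay inside the range of these targets.

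For *Cdkn1b* the list held the ubiquitin ligase that degrades p27 and the FOXO factors that induce its gene. *Skp2*, the subunit that recognises p27, read 9.15 in BCL11B-/- and 9.35 in BCL11B+/+ MEFs, a difference of −0.19, and its cofactor *Cks1b* differed by 0.18. *Foxo4* read 5.89 in BCL11B-/- and 7.08 in BCL11B+/+ MEFs, a difference of −1.19, while its other probe set differed by −0.07. It was the only one of 11 genes past 1.5-fold, and *Foxo1* and *Foxo3* differed by 0.10 and 0.13. The 3 probe sets of *Foxo3* ran from −0.25, at a mean of 4.17, to 0.13. The median of the list was 0.03.

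For the locus of *Cdkn2a* and *Cdkn2b* the list held Polycomb genes, which are known to silence it, and other factors known to act on it. None of 22 measured genes passed 1.5-fold, and the median was 0.03. *Bmi1*, the Polycomb gene best known for restraining *Cdkn2a*, differed by −0.10 and *Ezh2*, the methyltransferase of histone H3 lysine 27, by 0.22. The repressor *Tbx3* was highest with 0.50, though its 5 probe sets ran from −0.15 to 0.50. Those with a mean of at least 5 ran from 0.06 to 0.50. *Tbx2*, a related repressor, and *Hmga2*, which lowers expression of this locus in mouse neural stem cells, each differed by 0.38, and the 4 probe sets of *Hmga2* ran from 0.31 to 0.38. The lowest were *Kdm2b*, a histone demethylase, with −0.27 and *Ets2*, an activator of the INK4a promoter, with −0.20. The probe sets of *Ets2* ran up to 0.07, at a mean of 2.83.

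In the TGF-β, SMAD and MYC list, which bears on *Cdkn2b* and *Cdkn1a*, *Tgfb3* was higher and no gene was 1.5-fold lower among 13 measured. *Tgfb3* read 8.68 in BCL11B-/- and 7.90 in BCL11B+/+ MEFs, a difference of 0.78. *Tgfb2*, another ligand, read 8.81 in BCL11B-/- and 9.36 in BCL11B+/+ MEFs, and its 4 probe sets ran from −0.55 to −0.45, short of 1.5-fold. *Tgfbr2*, a TGF-β receptor, differed by −0.35 and *Smad3* by 0.18 (its 3 probe sets from −0.20, at a mean of 4.82, to 0.18). *Smad7*, an inhibitory feedback gene, differed by 0.15 and *Myc*, a repressor of *Cdkn2b* and *Cdkn1a*, by −0.13. The median of the list was −0.10.

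For *Cdkn1c* 2 lists were read. Glucocorticoids are known to raise *CDKN1C* in human cells, and dexamethasone was in the medium of both cultures. Of 9 genes, 8 known to be induced by glucocorticoids and the receptor gene *Nr3c1*, none passed 1.5-fold and the median was −0.07. *Klf9*, the lowest, read 11.76 in BCL11B-/- and 12.12 in BCL11B+/+ MEFs, a difference of −0.36. Its 7 probe sets ran from −0.49 to 0.37, but both of these ends had means under 5. Those with a mean of at least 5 ran from −0.45 to −0.18. *Zbtb16*, a zinc finger repressor, was next lowest with −0.23. *Errfi1*, a feedback inhibitor of EGF receptor signaling, and the kinase gene *Sgk1* were highest with 0.28 and 0.11, and *Fkbp5* and *Tsc22d3*, widely used readouts of the receptor, differed by −0.13 and −0.18. Whether glucocorticoid signaling bears on the value of *Cdkn1c* was not tested.

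The other list held genes of the imprinted domain in which *Cdkn1c* lies. The maternal copies of several of its genes are active, while on the paternal chromosome the RNA *Kcnq1ot1* silences them. Of 8 measured genes none passed 1.5-fold, 1 was above 0 and 6 were below, and the median was −0.09. *Kcnq1ot1* read 7.35 in BCL11B-/- and 7.29 in BCL11B+/+ MEFs. Its 6 probe sets ran from −0.65 to 0.21, the latter at a mean of 3.28. *Trpm5* was lowest with −0.35, and its 3 probe sets ran from −0.35 to 0.21, the latter at a mean of 3.77. *Cd81*, a tetraspanin gene, was at 11.89 in BCL11B-/- and 12.04 in BCL11B+/+ MEFs. *Phlda2* and *Ascl2*, which are imprinted with *Cdkn1c* and best known from placenta, and *Kcnq1* had means under 5. *Slc22a18*, the nearest gene with a probe set on one side of *Cdkn1c*, read 5.84 in both cultures, and its other probe set, with a mean of 5.11, differed by −0.34.

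The same look at the nearest named gene on each side was taken for all 7 inhibitors. It gave 14 neighbours, of which 11 had a mean of at least 5 and none passed 1.5-fold. *Cdkn2a* and *Cdkn2b* are neighbours of each other, and both are included in these counts. On their outer sides, *Mtap*, which encodes a methionine salvage enzyme, and *Dmrta1* differed by −0.09 and 0.07. *Srsf3*, a splicing factor gene next to *Cdkn1a*, differed by −0.0065 and *Rab44*, on its other side, by −0.30 at a mean of 5.16, close to the floor. *Lockd*, a noncoding RNA gene just downstream of *Cdkn1b*, differed by 0.20 at a mean of 5.11. *2810454H06Rik*, on the other side of *Cdkn1b*, differed by 0.10. *Faf1* next to *Cdkn2c* differed by 0.06 and *Kri1* next to *Cdkn2d* by −0.08. On their other sides, *9630013D21Rik* and *Ap1m2* had means under 5, as did *Kcnq1*.

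Other features of the cultures moved as well, and their part in the values of the inhibitors was not tested. The cells had high signals for the fibroblast genes *Col1a2*, a type I collagen chain, with 13.97 in BCL11B-/- MEFs against 14.06 in BCL11B+/+ MEFs, and *Vim*, vimentin, with 13.14 in BCL11B-/- MEFs against 12.96 in BCL11B+/+ MEFs. Of 10 fibroblast markers *S100a4* was higher, *Thy1* and *Dcn* were lower and 7 were neither, with a median of 0.02 and summed levels on the linear scale of 64757 in BCL11B-/- and 68844 in BCL11B+/+ MEFs. Of 12 measured macrophage markers 10 were past 1.5-fold in the lower direction and none in the higher, with a median of −0.85. They ran from *Laptm5* with −0.95 to *Adgre1* with −0.61 and included *Csf1r*, *Tyrobp*, *Lyz2*, *Cd68*, *Ptprc* and the C1q genes. Some of these were less far apart on other probe sets (*Laptm5* up to 0.04, *Ptprc* up to 0.10 at a mean of 3.73, *Csf1r* up to −0.14 at a mean of 5.90). The other 2 measured macrophage markers, *Fcer1g* and *Cd14*, differed by −0.50 and −0.06. The summed level of the 12 measured macrophage markers was 2691 in BCL11B-/- and 4717 in BCL11B+/+ MEFs. Of 7 chondrocyte markers 6 (*Comp*, *Col2a1*, *Col9a1*, *Hapln1*, *Col11a1* and *Sox9*) were higher and none was lower, with a median of 1.03 and summed levels of 4032 in BCL11B-/- and 2114 in BCL11B+/+ MEFs. Of 8 smooth muscle markers 5 (*Myl9*, *Tagln*, *Lmod1*, *Acta2* and *Cnn1*) were higher and none lower, with a median of 0.62 and summed levels of 9693 in BCL11B-/- and 5996 in BCL11B+/+ MEFs. Of 6 adipocyte markers 3 (*Lpl*, *Pparg* and *Cd36*) were lower and none was higher, while *Adipoq* and *Fabp4* differed by 0.56 and 0.31. The median over the 6 was −0.62, with summed levels of 5740 in BCL11B-/- and 9736 in BCL11B+/+ MEFs. Such linear sums mostly reflect the brightest genes. For chondrocyte markers this was *Col11a1*, with 11.57 in BCL11B-/- and 10.67 in BCL11B+/+ MEFs. For smooth muscle markers it was *Acta2*, with 12.69 in BCL11B-/- and 12.04 in BCL11B+/+ MEFs. For adipocyte markers it was *Lpl*, with 12.04 in BCL11B-/- and 13.02 in BCL11B+/+ MEFs. *Itgam* among the macrophage markers, *Matn1* among the chondrocyte markers and 5 of 7 endothelial markers, among them *Pecam1* and *Cdh5*, had means under 5, while *Kdr* and *Esam* differed by 0.15 and 0.19. Of 9 measured genes linked to senescence or quiescence, *Il6*, an inflammatory cytokine, was higher by 1.08 and *Igfbp3*, a binder of insulin-like growth factors, was lower with −1.02, and the median was −0.10. For RNA integrity, the 3′ probe set of the β-actin control exceeded the 5′ one by 1.47 in BCL11B-/- MEFs and by 1.64 in BCL11B+/+ MEFs. For the *Gapdh* control the excess was 0.52 in BCL11B-/- MEFs and 0.48 in BCL11B+/+ MEFs.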

How the data were processed

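Total RNA of BCL11B-/- and BCL11B+/+ MEFs was measured on 1 Affymetrix mouse genome array each, from 100 ng. The authors made expression values from the scanned probe intensities by robust multi-array averaging in R 3.0.3 (version per the submitters' processing notes) and Bioconductor, and the deposited values are log2 expression per probe set, normalized between the arrays, so a change in total mRNA would not be seen and differences of dim genes are pulled toward 0. No genome build is given for the array values in the sources used here, and probe sequences were not used here. Of 45101 probe sets, 64 were controls; of the others, 34945 named 1 gene in the platform annotation, and for 34741 the Entrez identifier was found among RefSeq genes of GRCm38.p6, which also gave the neighbouring genes. The RefSeq promoter windows matched 6 of the 7 members by symbol.

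Each gene was represented by its brightest probe set, by the mean of both arrays, for genes with a mean of at least 5, and counted at 1.5-fold. No test was possible with 1 array per genotype, and the number of arrays limits the precision. The members and gene lists were chosen with earlier results of these data known. Named genes were all members, the kinases, D-type cyclins, the Rb family, the neighbours of the members and, of other lists, genes past 1.5-fold or otherwise the highest and lowest; further genes named for their role were chosen after their values were seen. Listed genes without a probe set of their own were not analysed here. Alternatives were other choices of probe set, a loess fit with a span of 0.4, the median difference subtracted, no filter or a mean of at least 7, and 1.2- or 2-fold. Counting at 1.5-fold was tested on simulated data beforehand. A comparison of the proteins was planned and not run. The software was Python 3.11.15 with pandas 2.3.3, numpy 2.4.6, statsmodels 0.14.6 and matplotlib 3.10.9.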

Additional observations from a re-analysis of the deposited data

How the results depend on the processing

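All 34 alternative values of the 7 inhibitors moved by less than the SD between probe sets, and no sign changed. Most of these alternatives could not have moved a value. *Cdkn1c* and the 4 INK4 genes have 1 probe set each, so another choice of probe set returns the same value. The median difference was 0, so subtracting it changed nothing. Only the loess fit and, for *Cdkn1a* and *Cdkn1b*, the choice of probe set could move a value. The difference of *Cdkn1c* was −0.72 after the loess fit, which moved no probe set by more than 0.014, and as *Cdkn2a* has only a probe set with a suffix, it has no value without such probe sets. At 2-fold 0 inhibitors were lower, and 2 were higher at 1.2-fold. Of all genes, 124 were lower and 112 higher with a mean of at least 7, 962 lower and 1086 higher at 1.2-fold, and 62 lower and 43 higher at 2-fold; a stricter rule counts fewer genes by its construction and a looser one more. For the lists 153 alternative medians were computed, of which 7 moved by more than the SD. As the mean over all probe sets, the median of chondrocyte markers moved from 1.03 to 0.78 and that of smooth muscle markers from 0.62 to 0.42. In the same setting the median of macrophage markers moved from −0.85 to −0.68. With a mean of at least 7, chondrocyte markers had 0.77 and smooth muscle markers 0.83. The median of D-type cyclins turned to 0.07 as the mean over all probe sets, from −0.14. Both values are those of *Ccnd3*, whose probe sets include 1 at 0.38 with a mean of 4.31. The median of senescence and quiescence genes turned to 0.07 on the probe set with the largest difference, from −0.10. The 0.07 is the value of *Gas1* and the −0.10 that of *Glb1*. No paired analysis was possible because each genotype has 1 array.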
